A study of Mus musculus with 9 samples.

Results

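Barcodes with a high mitochondrial share made up 2267 of the 44898 liver barcodes that had at least 200 detected genes, out of 48000 barcodes in all. They were selected on a measured value: at least 25% of their UMIs (unique molecular identifiers, each counting 1 captured RNA molecule) came from genes whose symbol begins with mt-. Within each mouse they were set against the barcodes of 200 or more genes in which such UMIs made up no more than 8%, called low barcodes here, 21059 in all. The data came from Drop-seq, a droplet method that captures RNA from single cells on barcoded beads, applied to livers of 9 male C57BL/6 mice aged 8 weeks. Mice 1, 4 and 7 received PBS by intravenous injection, mice 2, 5 and 8 received the vector AAVrh.10Null, and mice 3, 6 and 9 received AAVrh.10mCherry, an adeno-associated virus vector named for the red fluorescent protein mCherry. Neither the dose of vector nor the interval before harvest is given in the sources used here. Each mouse was 1 library, so the mouse is the replicate throughout.

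Mitochondria carry a small circular genome that encodes a pair of ribosomal RNAs, a set of transfer RNAs and a few subunits of the respiratory chain. Hepatocytes hold many mitochondria, and most of the proteins of these organelles are made from nuclear genes and imported. In droplet data a high mitochondrial share is commonly used as a quality measure, because a cell whose membrane leaks can lose cytoplasmic RNA while keeping its mitochondria.

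The high barcodes were spread very unevenly over the mice. Mice 1 to 9 held 40, 47, 4, 7, 1, 909, 25, 1217 and 17 of them, so mice 6 and 8 together held 2126. As a share of barcodes with at least 200 genes, the PBS mice 1, 4 and 7 had 0.770%, 0.146% and 4.55%. The AAVrh.10Null mice 2, 5 and 8 had 0.653%, 0.025% and 16.9%. The AAVrh.10mCherry mice 3, 6 and 9 had 0.1%, 16.3% and 0.266%. Exact 95% binomial intervals, which cover counting error only, ran from 15.3% to 17.3% in mouse 6 and from 16.1% to 17.8% in mouse 8. In mouse 7 only 550 of 3600 barcodes reached 200 genes, and its interval ran from 2.96% to 6.64%. The groups overlapped fully: 1 mouse in each vector group stood above the 2 others by a wide margin. The mean share was 1.82% ± 2.38 (SD, n = 3) with PBS, 5.87% ± 9.58 (SD, n = 3) with AAVrh.10Null and 5.55% ± 9.29 (SD, n = 3) with AAVrh.10mCherry. The exact two-sided permutation p was 0.9 for AAVrh.10Null against PBS, 0.9 for AAVrh.10mCherry against PBS and 0.7 between the vectors, and 0.9 for each after Benjamini-Hochberg adjustment over the 3 pairs. With 3 mice a group the smallest p possible is 0.1. Without mouse 8 the AAVrh.10Null mean was below the PBS mean by 1.48 percentage points, and without mouse 6 the AAVrh.10mCherry mean was below it by 1.64.

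**Figure D1:**
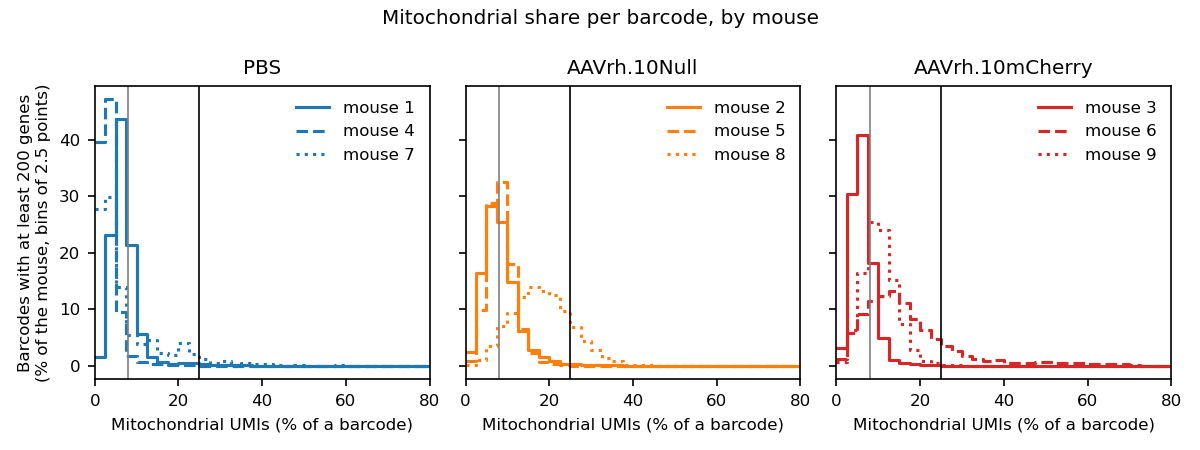
Mitochondrial share of the UMIs of each barcode with at least 200 genes (x axis, %) against the percentage of the mouse's barcodes in each bin (y axis), 1 line per mouse and 1 panel per treatment; the grey line marks 8% and the black line 25%. Mice 6 and 8 have broad distributions that run past 25%, where they hold 16.3% and 16.9% of their barcodes.

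The threshold of 25% cut through a continuous tail rather than a gap. Over all mice 625 barcodes lay from 25% to just under 27%, and 827 lay from 23% to just under 25%. At the lower threshold 3665 barcodes lay between 7% and 8%, and 3259 between 8% and 9%. The highest shares were in mouse 6, which held 185 of the 189 barcodes above 50% and reached 78.3%. The median share of the high barcodes was 29.4%, 28.4%, 33.1%, 30.5% and 28.3% in mice 1, 2, 6, 7 and 8. Of their barcode sequences 7 occurred in another mouse's table, and 0 were high in more than 1 table.

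The libraries also differed in a technical sign. Barcodes that ended in an undetermined base were 0.097% and 0.278% of those with at least 200 genes in mice 2 and 8, 5.27% in mouse 7 and 25.4% to 27.5% in the other 6 mice. The mice rich in high barcodes, 6 and 8, lay on opposite sides of this difference. In the high and low barcodes this share was 27.5% and 25.1% in mouse 1, 28.7% and 27.3% in mouse 6 and 0.329% and 0.24% in mouse 8. It was 0% and 0.156% in mouse 2 and 4% and 5.72% in mouse 7. Of the few high barcodes in mice 3, 4 and 5, 0 of 4, 1 of 7 and 0 of 1 ended so, against 26.8%, 25.5% and 26.5% of their low barcodes. Its part in the treatment comparisons was not tested.

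The median total of the high barcodes, which includes the mitochondrial UMIs they were chosen on, was 2872.5 UMIs in mouse 1, 837 in mouse 2, 855 in mouse 6, 807 in mouse 7 and 810 in mouse 8, against 1971, 724, 796, 367.5 and 1028 in the low barcodes. The median of UMIs from genes other than mt- genes was lower than in the low barcodes in mice 2, 6 and 8 (594 against 682, 538 against 751, and 569 against 968). It was higher in mouse 1 (2050 against 1863) and in mouse 7 (545 against 352). Across bins of the mitochondrial share it went down at each step in mice 6 and 8, from 751 below 8% to 470.5 at 50% and above in mouse 6, and from 968 to 525 from 35% to 50% in mouse 8.

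mt-Rnr2, the large ribosomal RNA of the mitochondrion, supplied most of the mitochondrial UMIs. These values belong to the rule that chose the barcodes and are given as a description. In the high barcodes mt-Rnr2 was 22.7%, 18.7%, 33.4%, 25.9% and 21.6% of all UMIs in mice 1, 2, 6, 7 and 8, against 3.88%, 3.06%, 4.25%, 2.27% and 2.9% in the low barcodes. mt-Cytb, the cytochrome b subunit of complex III, was 1.89%, 3.52%, 1.16%, 2.11% and 2.47% against 0.56%, 0.82%, 0.22%, 0.37% and 0.72%. mt-Nd1, a complex I subunit, and mt-Co1, a complex IV subunit, were also above the low barcodes in all 9 mice.

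The makeup of the mitochondrial RNA is given as a further description. It comes from the same UMIs that chose the barcodes, of which mt-Rnr2 is the largest part in these 5 mice. A larger part of mt-Rnr2 in the high barcodes is therefore not a result apart from the rule. Of the mitochondrial UMIs alone, mt-Rnr2 was 75.5% in the high barcodes of mouse 1 and 69.6% in its low barcodes. The pairs were 63.5% and 57.2% in mouse 2, 83.9% and 80.9% in mouse 6, 77.9% and 68.7% in mouse 7, and 73.4% and 56.0% in mouse 8. The ribosomal RNA thus took the larger part in high barcodes of each of these 5 mice, while mt-Cytb, mt-Nd1, mt-Nd2, mt-Nd4 and mt-Nd5 each took a smaller part in all 5. Mouse 4, with 7 high barcodes, went the other way, with mt-Rnr2 at 29.1% against 58.6%.

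Several mitochondrial messenger RNAs were almost missing from the tables. Over all barcodes of all 9 mice mt-Co2 had 16 UMIs, mt-Co3 had 16, mt-Atp6 had 15, mt-Nd4l had 2 and mt-Atp8 had 1, whereas mt-Co1 had 115310. In the GRCm38 annotation used here (GENCODE M21), a block on chromosome 1 holds nuclear copies of mitochondrial genes. There Gm28661 (chr1:24614885-24615565, minus strand) matched mt-Co2 (chrM:7013-7696) at 681 of 681 aligned bases. Gm28437 matched mt-Co3 at 783 of 783, Gm10925 matched mt-Atp6 at 678 of 678, and Gm10222 matched mt-Nd4l at 294 of 294. Gm28438 matched mt-Nd3 at 342 of 342, and mt-Nd3 had 2475 UMIs, more than these genes but far fewer than mt-Co1. Gm28439 matched mt-Nd4 at 876 of 876 but covers only that part of its 1378 bases. In the high barcodes alone mt-Nd4 had 16101 UMIs. No annotated copy of mt-Atp8 was among those compared. By position mt-Atp8 (chrM:7766-7969) lies after mt-Co2 and overlaps the start of mt-Atp6 (chrM:7927-8607). Their copies, Gm28661 and Gm10925, are neighbours in the block, and the bases between these copies were not compared with mt-Atp8. A read from such a stretch has the same letters in both places. How the deposited tables treated reads with more than 1 match is not given in the sources used here, and its part in the missing UMIs was not tested. The mitochondrial share therefore rests mainly on the ribosomal RNA and on mt-Cytb, mt-Nd1, mt-Nd2, mt-Nd4, mt-Nd5 and mt-Co1.

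Another pair of copies, on chromosome 2, differs from the mitochondrial genes at some bases. Gm13341 (chr2:22587291-22587962, minus strand) matched mt-Co2 at 95.9% of aligned bases, and Gm13340 (chr2:22588103-22589647, minus strand) matched mt-Co1 at 97.6%. The 80 bases below, bases 445 to 524 of mt-Co2 and the matching stretch of each copy, 5′ to 3′ on the strand of the gene, are shown because they hold the most differences. Capitals mark bases of a copy that differ from mt-Co2, 7 in Gm13341 and 0 in Gm28661; all are annotated reference sequences of GRCm38.
mt-Co2: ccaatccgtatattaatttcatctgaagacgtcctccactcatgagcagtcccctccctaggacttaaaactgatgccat
Gm13341: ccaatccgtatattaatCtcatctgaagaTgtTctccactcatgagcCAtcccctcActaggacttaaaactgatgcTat
Gm28661: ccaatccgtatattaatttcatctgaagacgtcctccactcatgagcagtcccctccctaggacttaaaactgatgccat

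For the other genes, UMIs were summed over the high and over the low barcodes of each mouse that had at least 20 of each. These were mice 1, 2, 6, 7 and 8, with 2238 high and 9566 low barcodes, and they span PBS (1 and 7), AAVrh.10Null (2 and 8) and AAVrh.10mCherry (6). Levels below are in CPM, here UMIs of a gene per 1000000 UMIs from genes other than mt- genes, so the mitochondrial UMIs do not dilute them. The high sums held 90755, 29736, 582588, 13899 and 744265 such UMIs, and 1 UMI equals 71.9 CPM in mouse 7 but 1.34 CPM in mouse 8. edgeR's quasi-likelihood test, with the mouse as a block and p adjusted by Benjamini-Hochberg over 5634 genes, called 17 genes higher and 23 lower in the high barcodes. That is 0.302% and 0.408% of the genes tested, 0.71% together, and 295 genes had an unadjusted p under 0.05. Under other scalings the split was 27 higher and 23 lower (DESeq2 size factors) or 41 and 27 (no factor beyond the UMI total). The median log2 fold change of all genes tested was -0.13. The log2 fold changes and p values use edgeR's TMM scaling factors, but the CPM levels and the counts of mice higher or lower do not. These factors were 1.43 and 0.80 for the high and low sums of mouse 7, so levels and fold changes can differ in direction there.

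Several of the 17 genes called higher encode secreted or membrane proteins that hepatocytes make, although most genes on the lists of such proteins did not pass (given further on). Apob, the structural protein of very low density lipoprotein, was at 4319, 1177, 2765, 1439 and 868 CPM in the high barcodes of mice 1, 2, 6, 7 and 8. In the low barcodes of the same mice it was at 1008, 648, 1199, 155 and 731. It was higher in 5 of 5 mice, least clearly in mouse 8, and the levels of the groups overlapped across mice. The mean was 2114 ± 1429 (SD, n = 5) against 748 ± 398, and the log2 fold change was 1.31 (SE 0.30, edgeR adjusted p = 0.0033).

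Pigr, the receptor that carries polymeric immunoglobulin into bile, was at 3239, 4338, 3253, 4389 and 1882 CPM in the high barcodes. It was at 639, 1483, 1227, 671 and 1668 in the low barcodes. Every high value lay above every low value, although in mouse 8 the margin was small. The log2 fold change was 1.47 (SE 0.29, edgeR adjusted p = 0.00021).

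Ces1c, a carboxylesterase secreted into plasma, was at 1477, 2085, 2302, 5252 and 1387 CPM in the high barcodes and at 496, 1288, 1038, 631 and 1182 in the low ones. Cp, ceruloplasmin, the copper-carrying ferroxidase of plasma, was at 2204, 1749, 1310, 2734 and 1236 against 647, 862, 721, 504 and 1122. Both were higher in 5 of 5 mice without overlap of the groups, with log2 fold changes of 1.16 (SE 0.29, edgeR adjusted p = 0.013) and 1.07 (SE 0.29, adjusted p = 0.037).

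Complement genes were among the called genes. Cfb, complement factor B, rose by a log2 fold change of 1.31 (SE 0.31, edgeR adjusted p = 0.0061) and was higher in 5 of 5 mice. C3, the central complement protein, was at 4077, 6322, 5215, 2446 and 2726 CPM in the high barcodes and at 984, 2579, 1993, 585 and 2924 in the low ones. It was higher in 4 mice and slightly lower in mouse 8, with a log2 fold change of 1.18 (SE 0.29, edgeR adjusted p = 0.013).

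Itih1, a heavy chain of the inter-alpha-trypsin inhibitor, rose by a log2 fold change of 1.39, and 1300017J02Rik, an inhibitor of carbonic anhydrase, by 1.06. The next genes were called higher too, but were picked out to be named after their values were seen. C4b (complement C4) had 1.25, Qsox1 (a sulfhydryl oxidase of the secretory pathway) 1.14 and Col18a1 (a collagen of basement membranes) 1.12. Tmprss6 and Tfr2 (a membrane protease and a transferrin receptor that act on hepcidin) had 1.10 and 1.07, Slc27a5 (a bile acid CoA ligase) 1.09 and CT010467.1 (a ribosomal RNA in the annotation) 1.39. C3, C4b, Itih1, Col18a1, Qsox1, Tmprss6, Tfr2 and Slc27a5 were each higher in 4 of 5 mice, with mouse 8 the exception.

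The 2 remaining genes called higher were the chromosome 2 copies described above. Gm13341 was at 66.1, 202, 120, 360 and 34.9 CPM in the high barcodes and at 6.0, 30.4, 10.3, 0 and 19.4 in the low ones, with a log2 fold change of 2.80. Gm13340 changed by 2.31. They share nearly all their sequence with mt-Co2 and mt-Co1. The deposited counts hold no read sequences, so mitochondrial reads that were placed on a copy cannot be told apart in them. Gm13341 and Gm13340 are therefore not read as nuclear genes. With all annotated copies removed before the fit, 13 genes were called higher and 22 lower.

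**Figure D2:**
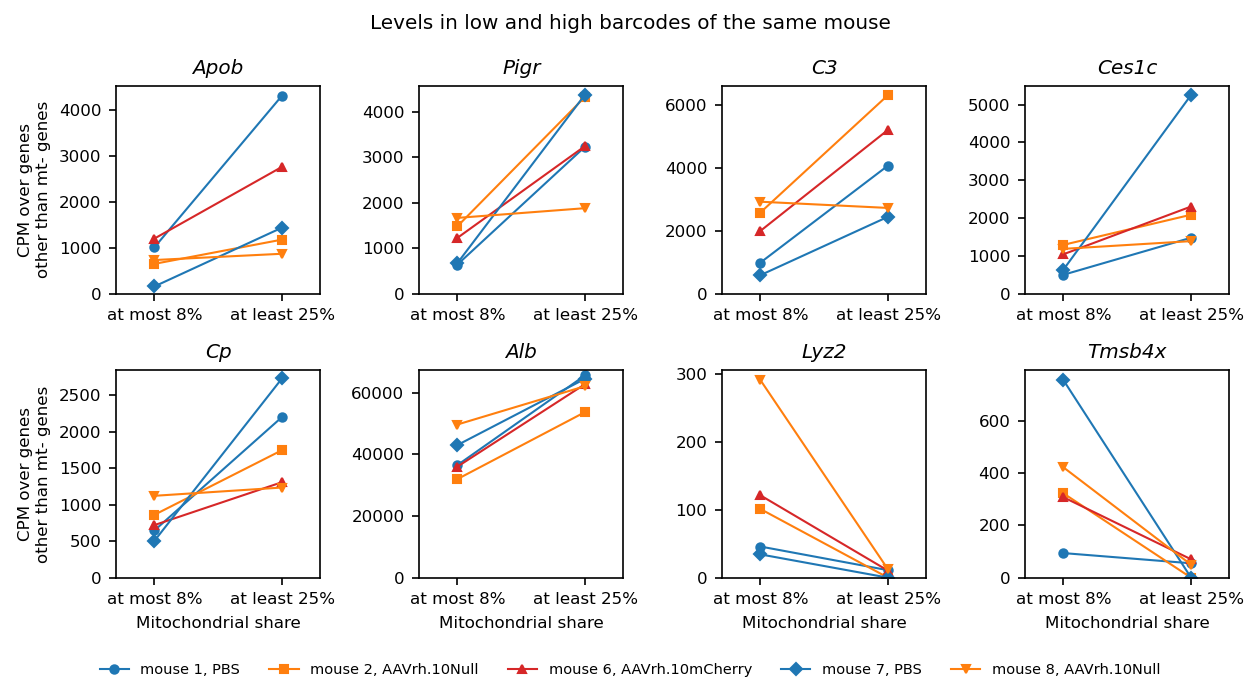
Level of 8 genes (y axis, CPM over genes other than mt- genes) in the low and high barcodes of the same mouse (x axis), with 1 line for each of 5 mice, coloured by treatment. These levels leave out the TMM factors of the test. Pigr, Ces1c, Cp and Alb rise in all 5 mice and Lyz2 and Tmsb4x fall in all 5, while the lines of mouse 8 are the flattest for Pigr, C3 and Cp.

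Mouse 8 weighed on the calls in 1 direction and mouse 1 in the other. Without mouse 8, 39 genes were called higher, and without mouse 1 only 4 were (CT010467.1, Cfb, Gm13340 and Gm13341). Without mouse 6 the count was 5 and without mouse 2 it was 7. Apob kept its call in 18 of 22 alternative settings and Pigr in 19 of 22. Tfr2 kept its call in 5 of 22.

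The 29 high barcodes of mice 3, 4, 5 and 9 did not enter that test and give a separate look at the same genes. All 17 genes called higher, Gm13340 and Gm13341 included, had more UMIs there than the low barcodes of the same mice would give at equal depth. The totals were 651 against 239. These mice were pooled, and the same share over all genes tested was not computed, so no conclusion is drawn from the count of 17. Mouse 9 gave 19240 of the UMIs from genes other than mt- genes in these high barcodes. Mice 3, 4 and 5 gave 4729, 6048 and 679. For 10 of the 17, the exact 95% Poisson interval of the ratio lay above 1. The interval covers counting error only. Of the 23 genes called lower, 22 had fewer UMIs there and 1 had more, 11 in total against 49.6. With so few UMIs due over 23 genes, a gene without any UMI counted as fewer however little was due. The same share over all genes tested was not computed for this direction either, so no conclusion is drawn from the count of 22. For 2 of the 23 the interval lay below 1. C3 had 187 UMIs against 56.5 (ratio 3.31, interval 2.85 to 3.82), Apob 144 against 40.3 (3.57, 3.01 to 4.21) and Pigr 83 against 31.1 (2.67, 2.13 to 3.31).

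Of the 13 listed marker genes of other cell types that could be tested, 10 were called lower. The low-count filter can be met by the low sums alone. A gene that entered in that way could hardly be called higher. The count is therefore a description, and no conclusion is drawn from it. Lyz2, the lysozyme of myeloid cells, had 1, 0, 6, 0 and 9 UMIs in the high barcodes of mice 1, 2, 6, 7 and 8, or 11.0, 0, 10.3, 0 and 12.1 CPM. In the low barcodes it was at 46.0, 101, 122, 34.4 and 292 CPM. All observed high values lay below all low values, and the log2 fold change was -3.91 (SE 0.46, edgeR adjusted p = 1.3e-13). The low sums alone can meet the filter for Lyz2 too, so these values are a description as well. In mice 2 and 7 the 3 UMIs that a count of 0 allows equal 101 and 216 CPM, so those zeros are weak evidence on their own. Both lie above the 46.0 and 34.4 CPM in the low barcodes of mice 1 and 7, so the lack of overlap is not firm.

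Tmsb4x, the actin-binding thymosin beta 4 that is abundant in blood and endothelial cells, was at 55.1, 0, 70.4, 0 and 49.7 CPM in the high barcodes. It was at 94.1, 323, 308, 757 and 423 in the low barcodes. The observed values did not overlap, and the log2 fold change was -2.56 (SE 0.36, edgeR adjusted p = 2.8e-09). The zeros in mice 2 and 7 allow 101 and 216 CPM, above the 94.1 of mouse 1, so the lack of overlap is not firm. The low sums alone can meet the filter here too. Lyz2 passed in 19 of the 20 alternative settings that tested it, all but DESeq2. Tmsb4x passed in 20 of 21, all but the fit on barcodes with at most 1 UMI of the marker genes of other cell types.

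By marker list, under the same limit of the filter, all 5 endothelial genes tested were called lower. Kdr (the VEGF receptor 2) had a log2 fold change of -2.70. Clec4g and Fcgr2b (of sinusoidal endothelium) had -2.34 and -2.40, Dnase1l3 had -1.88 and Ptprb, named after its values were seen, had -1.58. Of the 5, 1 was lower in every mouse, against 562 of all 5634 genes tested. The summed endothelial markers were not lower in mouse 1, at 121 against 120 CPM, but were lower in the other mice of the test. Of 2 macrophage markers tested C1qc was called at -3.85, while Clec4f had -1.73 with an edgeR adjusted p of 0.18. Of 3 stellate cell markers Dcn and Ecm1 were called at -1.33 and -1.55. Of 2 red cell genes Hbb-bs was called at -3.40, while the other had -0.05 and did not pass. No stellate or red cell gene was lower in every mouse, and mouse 8 went the other way on both lists, with 65.8 against 31.1 CPM for the summed stellate markers and 82.0 against 73.9 for the red cell genes. Dcn was at 33.6 against 9.07 CPM there. The single cholangiocyte marker tested, Spp1, was called at -3.71 and was also lower in every mouse but mouse 8. No gene of the B cell, T cell, neutrophil and platelet lists had enough UMIs to be tested.

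Over the 50 marker genes of other cell types together, the level was 320, 538, 1165, 288 and 232 CPM in the high barcodes of mice 1, 2, 6, 7 and 8. It was 623, 5441, 7306, 2252 and 715 in the low barcodes, higher in each mouse. Of these sums, the red cell genes held 201, 4455, 5252, 235 and 73.9 CPM in the low barcodes. In the high barcodes they held 143, 168, 832, 144 and 82.0. Of the 50, 16 had 0 UMIs in the high barcodes of these mice, among them Cd3g, Nkg7 and Trbc2 of T and NK cells, Ms4a1 of B cells, Epcam of cholangiocytes and Col3a1 of fibroblasts. The neutrophil list had 0 UMIs on both sides in these mice. The hepatocyte list was at 140100 to 167926 CPM in the high barcodes and 100376 to 161085 in the low ones, and was higher in the high barcodes of all 5 mice. Of its 8 genes, 5 had a log2 fold change above 0 and 3 below, with a median of 0.06, and 0 passed. By these summed levels hepatocyte genes far exceeded the other markers on both sides. Barcodes with more than 1 UMI of another cell type were 15%, 2.1%, 4.3%, 0% and 1.2% of the high barcodes against 14.8%, 10.7%, 12.7%, 12.4% and 9.4% of the low ones.

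When barcodes with more than 1 UMI of those markers were left out on both sides, edgeR called 5 genes higher (Apob, Itih1, Pigr, Gm13340 and Gm13341) and 0 lower, with 221 of 5168 genes at an unadjusted p under 0.05. Among all barcodes again, the rest of the genes called lower, named after their values were seen apart from Glul, were Crip1, H2-Ab1, H2-Aa, Cotl1, Wfdc17, Ehd3, Igfbp7, Trp53, Sparc, Gpihbp1 and Glul. Crip1 had the lowest log2 fold change at -5.07, H2-Ab1 and H2-Aa present antigen on immune cells, and Glul is the glutamine synthetase of pericentral hepatocytes.

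The wider gene lists showed counts and medians but few calls. Of all 5634 genes tested, 1956 had a log2 fold change above 0 and 3678 below. The counts above 0 in each list are to be read against that share. Of 39 genes for secreted plasma proteins, 29 had a log2 fold change above 0 and 19 were higher in every mouse, against 105 of all 5634 genes tested. Their median was 0.25, and 3 passed (Apob, C3 and Itih1). Alb, serum albumin, was at 65649, 53740, 62804, 64537 and 62134 CPM in the high barcodes and at 36511, 31979, 36015, 43021 and 49689 in the low ones. In CPM the groups did not overlap, but with the TMM factors Alb would be lower in the high barcodes of mouse 7. With a log2 fold change of 0.50 (SE 0.28) Alb did not pass (edgeR adjusted p = 0.96). Itih4 and Fgb, other plasma proteins, had 0.89 and 0.54 and did not pass, although each was higher in 5 of 5 mice.

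Of 35 enzymes of the endoplasmic reticulum membrane 26 had a log2 fold change above 0, with a median of 0.21, and Ces1c passed, which this list holds although its enzyme is known mainly as a secreted one. Ugt2b5, a glucuronosyltransferase of this list, had 0.56 and did not pass. Of 16 genes of the unfolded protein and integrated stress response 11 lay above 0 and 0 passed. Hspa5, the main chaperone of the endoplasmic reticulum, was at 2744, 1951, 1967, 1943 and 922 CPM against 1139, 1021, 1057, 550 and 848, higher in 5 of 5 mice, with a log2 fold change of 0.84 (edgeR adjusted p = 0.28). Hyou1, a second chaperone there, had 0.75. Of 19 periportal hepatocyte genes 14 lay above 0, the median was 0.32, and Pigr passed. Of 16 pericentral genes 5 lay above 0, a share near that of all genes tested, and Glul passed as lower.

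None of the nuclear genes for mitochondrial proteins on 3 lists passed in either direction. Of 77 nuclear-encoded oxidative phosphorylation genes 4 had a log2 fold change above 0, and the median was -0.32. Their summed level was lower in the high barcodes of mice 1, 2, 6 and 7 and was 36366 against 35772 CPM in mouse 8. Uqcrb, a complex III subunit, had -0.73 and Sdhd, a complex II subunit, had -0.68. Of 75 mitochondrial ribosomal protein genes 11 lay above 0, with a median of -0.24, and Mrps18c had -0.92. Among 52 matrix enzymes the median was -0.11. The 3 with the smallest p were all higher: Sardh (sarcosine dehydrogenase) at 1.06, Pcx (pyruvate carboxylase) at 1.03 and Cps1 (the first enzyme of the urea cycle) at 0.67. Their edgeR adjusted p values were 0.056, 0.073 and 0.77.

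Cytosolic ribosomal protein genes had a median of -0.40, with 6 of 80 above 0 and 0 passing, and Rps18 had -0.75. Among cytosolic enzymes Gpx1 (glutathione peroxidase) had -0.64 and Fabp1 (the liver fatty acid binding protein) had -0.59. Of 28 splicing factors 3 lay above 0, the median was -0.34 and Srsf7 had -1.09, and of 12 immediate early genes 2 lay above 0, with Junb at -0.99 and Dusp1 at -0.78. None of these genes passed.

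Several of these medians depended on which mice were fitted. With mice 6 and 8 alone, which hold most of the high barcodes, the median was 0.20 for cytosolic ribosomal proteins (78 of 80 above 0) and 0.13 for nuclear-encoded oxidative phosphorylation (68 of 77). The secreted plasma proteins were at 0.54 in those 2 mice (39 of 39 above 0) and the splicing factors at -0.52 (2 of 28). The PBS mice differed from that: the summed level of the splicing factors was 4198 and 7051 CPM in the high barcodes of mice 1 and 7, against 2863 and 3869 in the low ones. The immediate early genes were likewise at 3107 and 4389 against 2374 and 3141 there, and lower in the high barcodes of mice 2, 6 and 8.

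**Figure D3:**
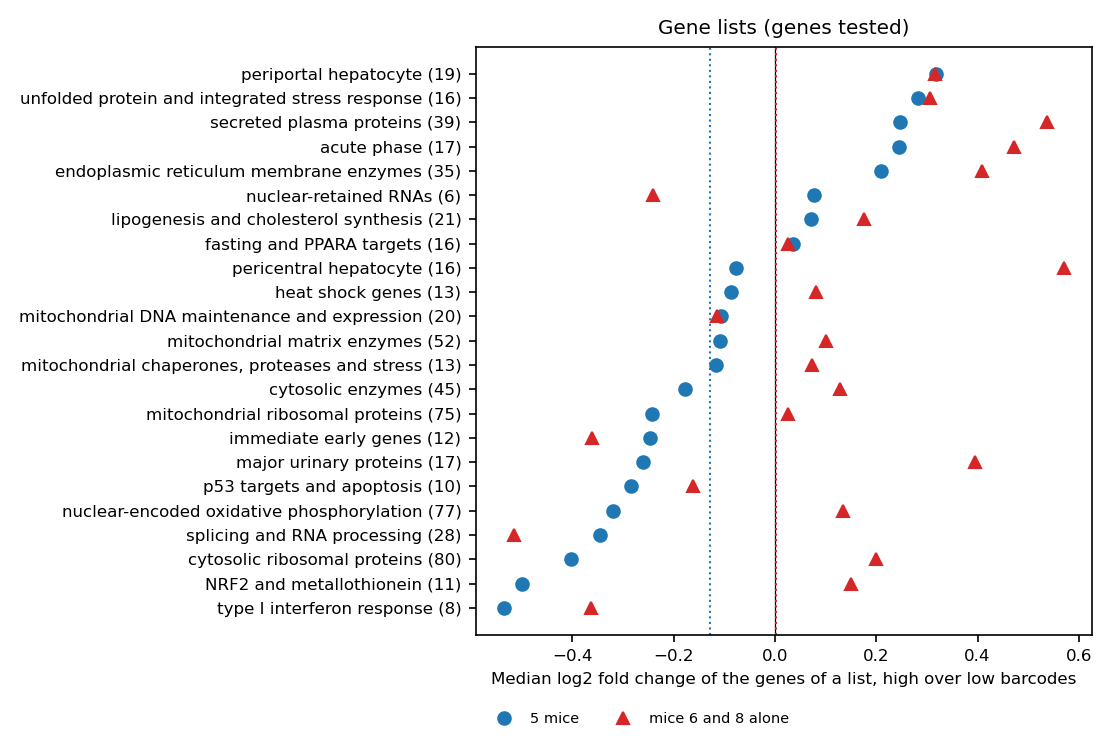
Median log2 fold change of the tested genes of each list (x axis, high over low barcodes; the number tested over 5 mice is in parentheses), for 5 mice (circles) and for mice 6 and 8 alone (triangles); dotted lines mark the median of all genes tested, -0.13 and 0.00. Cytosolic ribosomal proteins lie at -0.40 and 0.20, while secreted plasma proteins lie above 0 in both, at 0.25 and 0.54.

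Nuclear RNA went in different directions in different mice. Malat1, a long RNA retained in the nucleus, was at 14776 and 35830 CPM in the high barcodes of the PBS mice 1 and 7, against 5508 and 10621 in the low ones. In mice 2, 6 and 8 it was at 20985, 16796 and 10271 against 35071, 22609 and 18226. It was thus higher in both PBS mice and lower in the 3 vector-treated mice that entered the test. In mouse 3, an AAVrh.10mCherry mouse with 4 high barcodes, it was higher in them, at 9939 against 7348. Over 5 mice the log2 fold change was 0.06 (SE 0.29, edgeR adjusted p = 0.99). Neat1, another nuclear RNA, was higher in 4 of 5 mice with a log2 fold change of 1.05 (SE 0.31, edgeR adjusted p = 0.090).

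The test of that difference between treatments compared the 2 AAVrh.10Null mice with the 2 PBS mice. Of 5942 genes tested 0 passed in either direction (0% called, edgeR), and 705 had an unadjusted p under 0.05. DESeq2 also called 0 in either direction, while limma-voom called 108 and 207. The AAVrh.10Null minus PBS difference in the log2 effect on Malat1 was -1.90 (SE 0.56, edgeR adjusted p = 0.25), and for Neat1 the difference was -2.57 (SE 0.66, adjusted p = 0.16). The other genes with the smallest p were Dcn, Ndufs5 and Cyp2c29, with differences of 5.24, 3.73 and 2.10, and Mug-ps1 and Akap13, with -2.82 and -2.80. None of these passed. For AAVrh.10mCherry the test could not be made, since only mouse 6 had enough barcodes on both sides.

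Mice 6 and 8 held enough barcodes to follow levels across the whole range of the mitochondrial share. In mouse 6 Malat1 was at 22609 CPM below 8%, fell to 6409 from 15% to 25% and stood at 36294 at 50% and above. Neat1 was at 435 CPM below 8%, lowest from 8% to 15% at 201, and at 2367 at 50% and above. In mouse 8 Malat1 was highest from 8% to 15%, at 29212, and was at 10183 from 25% to 35% and 11542 from 35% to 50%. Each bin is 1 sum from 1 mouse, so these values have no replicate error.

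Alb in mouse 6 went from 36015 CPM below 8% to 70386 from 35% to 50%, and was at 53984 at 50% and above. Apob went from 1199 to 3207 and then 2297, and C3 from 1993 to 6394 and then 5967. In mouse 8 Alb went from 49689 to 64233 and Apob from 731 to 1174, while C3 moved only between 2481 and 2924. Endothelial markers went the other way, from 1088 to 30.1 CPM in mouse 6 and from 113 below 8% through 234 in the next bin to 18.1 in mouse 8. Cytosolic ribosomal proteins in mouse 6 were at 43862 from 8% to 15% and 26797 at 50% and above, and in mouse 8 stayed between 27154 and 34065.

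**Figure D4:**
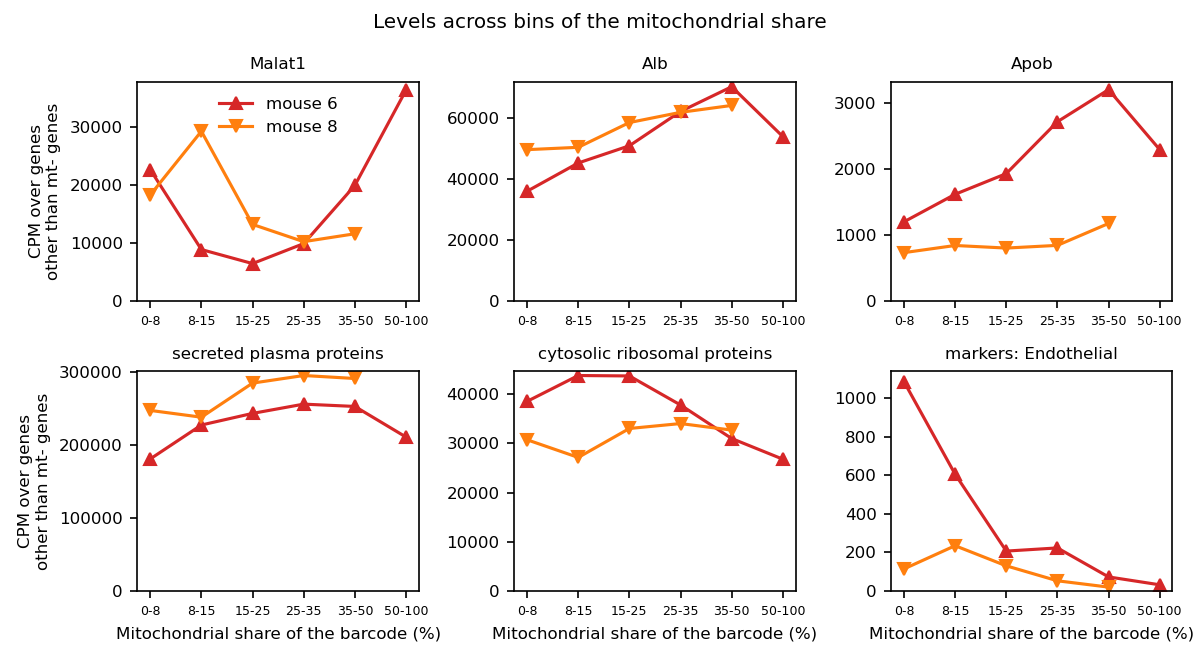
Levels (y axis, CPM over genes other than mt- genes) of 3 genes and 3 summed gene lists across bins of the mitochondrial share (x axis, %), in mouse 6 (AAVrh.10mCherry) and mouse 8 (AAVrh.10Null); each point is the sum over all barcodes of a bin, and bins with fewer than 20 barcodes are left out. Malat1 in mouse 6 is lowest from 15% to 25%, at 6409, and highest at 50% and above, at 36294.

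Between treatments, the high barcodes of the 2 AAVrh.10Null mice and the 2 PBS mice differed in 1 of 2192 genes (0.0456%, edgeR, higher) and 0 lower, with 82 at an unadjusted p under 0.05. The gene was Igkv3-12, an immunoglobulin kappa variable segment, with 3 and 214 UMIs (101 and 288 CPM) in mice 2 and 8 and 0 in mice 1 and 7 (edgeR adjusted p = 0.022). The same contrast held outside the high barcodes, with 125 and 216 CPM in the low barcodes of mice 2 and 8 and 0 in mice 1 and 7. It was not called with DESeq2 or without any of mice 1, 2, 7 and 8. Btg2, Chka and Ier2 had the smallest p among lower genes, with log2 fold changes of -2.86, -2.72 and -2.59, and did not pass (adjusted p = 0.059, 0.059 and 0.065). Mup11 and Rps20 were next among higher genes, at 2.13 and 2.59, and did not pass.

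For AAVrh.10mCherry only mouse 6 could be set against the PBS mice, with its spread assumed to be that of the other mice. edgeR called 7 of 2192 genes higher (0.319%) and 25 lower (1.14%), 1.46% together, with 151 at an unadjusted p under 0.05. These calls describe mouse 6 against mice 1 and 7; the treatment and the mouse cannot be told apart. mCherry itself was at 6136 CPM in its high barcodes and 7438 in its low ones. It had 33.1 and 28.8 in mouse 1 and 0 in mice 2 and 7 on both sides. Hbb-bs and Cyp2b9 were next among the higher genes, at 518 and 415 CPM against 0 in both PBS mice, where 0 UMIs allow 33.1 CPM in mouse 1 and 216 in mouse 7. Most of the red cell RNA in the high barcodes of mouse 6 lay from 35% to 50%, where the red cell genes were at 3250 CPM, against 73.0 and 30.1 in the bins below and above. Lower genes included Selenbp2 at 9 CPM against 1873 and 863, Elovl3 at 5 against 242 and 288, and Serpina1e at 263 against 10159 and 4533. These differences marked the whole library of mouse 6 and not its high barcodes alone: in its low barcodes Cyp2b9 was at 417, Selenbp2 at 42, Elovl3 at 3 and Serpina1e at 376. Per 1000000 UMIs of the whole library, Serpina1e had 276 in mouse 6, and the lowest and highest of the 8 remaining mice had 8078 and 18133. Mouse 6 had 511 UMIs of the Y-linked gene Ddx3y, which goes with its male label. It had 8 UMIs of Xist, the most of any mouse, and the others had 0 to 2. Without mouse 1, 0 genes were called in either direction. The high minus low comparison pairs barcodes within a mouse, so such a difference between mice does not enter it directly.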

How the data were processed

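Livers of 9 mice were profiled by Drop-seq and sequenced on an Illumina HiSeq 2500, per the labels' protocols. The deposited tables hold UMI counts per gene and barcode for each mouse, without normalization. The submitters' processing notes name the build mm10 and Seurat, and a deposited read-me names bcl2fastq 2.19 for demultiplexing; the aligner, annotation and barcode filter are not given in the sources used here. Table totals ran from 1083091 to 11220152 UMIs.

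Counts were summed per mouse and side where at least 20 barcodes were present on each. The sums were fitted with edgeR 4.0.16 in R 4.3.3 (TMM scaling, low-count filter, quasi-likelihood test, mouse as a block, threshold 0.05), after a test on simulated data. The barcode rule, gene lists and named genes were chosen with earlier results of these data known. Genes named were up to 12 per direction with the largest change among those called, at a mean of at least 50 CPM and moving the same way in every mouse, up to 4 per list by p, and 3 per direction in the other tests. Doublets were not removed. DESeq2 1.42.0 and limma 3.58.1 were alternatives, with other scalings, filters, thresholds and left-out mice; fits on a few named mice, and without nuclear copies, were added after seeing the data. The pairing comes from the mouse itself. Sequences and positions are from GENCODE M21 (GRCm38).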

Additional observations from a re-analysis of the deposited data

Results flagged for a closer look

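Over 28 of the named genes, those with at least 3 UMIs in every sum, the log2 ratio of high to low barcodes was checked for a mouse far from the other 4. In 1 gene a mouse stood apart: for Ugt2b5 the ratio in mouse 7 was 2.11, against 0.12 to 0.69 in the other mice. Chance alone flags about 1 in 20 groups. Mouse 7 also had the fewest UMIs in its high sum, 13899.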

How the results depend on the processing

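Counts of genes higher and lower in the high barcodes, 17 and 23 as reported, were 31 and 2 with DESeq2, 3 and 3 with limma-voom, 27 and 23 with DESeq2 size factors, 41 and 27 without scaling factors, and 8 and 125 without a filter on low counts. They were 34 and 64 with thresholds of 20% and 10%, 9 and 7 with 30% and 5%, 15 and 15 with a ceiling of 50%, 31 and 1 with low barcodes matched on depth (1252 genes tested), 5 and 0 without barcodes holding other cell types' markers, 15 and 14 without barcodes ending in an undetermined base, 13 and 62 with at least 50 barcodes a side (mice 6 and 8), and 5 and 50 without mice 1 and 7. Without the replicate block they were 1 and 2. Leaving out 1 mouse at a time gave 4 to 39 higher and 6 to 35 lower.

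For the difference between AAVrh.10Null and PBS, 0 and 0 as reported became 108 and 207 with limma-voom, 2 and 16 with DESeq2 size factors, 9 and 66 without scaling, 59 and 84 with thresholds of 20% and 10%, and 3 and 18 with matched depth; leaving out 1 mouse gave 0 to 1 higher and 0 lower each time. For high barcodes of AAVrh.10Null against PBS, 1 and 0 became 0 and 0 with DESeq2, without a filter and with 20% and 10%, 14 and 18 with limma-voom, and 2 and 3 under both other scalings; leaving out 1 mouse gave 0 to 1 and 0 to 4. For AAVrh.10mCherry, 7 and 25 became 0 and 17 with DESeq2, 31 and 76 with limma-voom, 3 and 1 without a filter, and 1 and 0 with 20% and 10%; leaving out 1 mouse gave 0 to 7 and 0 to 22. Where 1 mouse is left in a group, it is assumed to vary like the others. Thresholds of 30% and 5% left too few mice for the treatment tests.

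The difference in share between AAVrh.10Null and PBS ran from -1.48 to 6.97 percentage points on leaving out 1 mouse, that between AAVrh.10mCherry and PBS from -1.64 to 6.45, and that between the vectors from -5.69 to 5.21, and the last was 1.51 with thresholds of 30% and 5%, against -0.32 as reported.

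Of the genes named, Dcn turned to 0.15 with thresholds of 30% and 5% and to 0.66 without other cell types' markers. Malat1 turned to -0.024 without a filter, -0.10 without the replicate block, -0.42 in mice 6 and 8, -0.62 without mice 1 and 7, and ran from -0.24 (without mouse 1) to 0.35 (without mouse 2) on leaving out 1 mouse, with -0.17 without mouse 7. In mice 6 and 8 alone, Rps18, Uqcrb, Gpx1 and Fabp1 turned to 0.17, 0.13, 0.084 and 0.22. The cause was not tested. Depth limits the high sums of mice 2 and 7, where 3 UMIs equal 101 and 216 CPM.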
